A study of Homo sapiens with 6 samples.

Results

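The double-stranded RNA sensors and effectors are 9 genes chosen by symbol: the cytosolic sensors DDX58 (which encodes RIG-I), IFIH1 (MDA5) and DHX58 (LGP2), the endosomal sensor TLR3, the adaptor MAVS, the effectors EIF2AK2 (PKR), ADAR and ZC3HAV1 (ZAP), and the ubiquitin ligase TRIM25. They are 9 of the 18750 genes to which the count table could be matched, and 39 of their 69 annotated transcripts had a row among the 98886 transcripts of the table. The libraries came from HCT116, an established human colorectal carcinoma line, transfected either with an siRNA that targets the long non-coding RNA AC010789.1 (3 libraries, called si-AC010789.1) or with one meant to target nothing (3 libraries, called siRNA-NC). Both groups therefore carried a short synthetic double-stranded RNA, no untransfected library was analysed, and the treated group rests on a single cell line. The study compared these groups to learn which genes respond when AC010789.1 is silenced, and the level of AC010789.1 itself was not analysed here.

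Cells treat long or uncapped double-stranded RNA in the cytosol as a sign of infection. RIG-I binds RNA ends that carry a triphosphate, MDA5 assembles along longer duplexes, and both pass the signal to MAVS on mitochondria, from which kinases activate the transcription factors that switch on type I and type III interferon genes. LGP2 binds the same RNA without the caspase recruitment domains needed to signal, TLR3 reads duplexes taken up into endosomes, PKR halts translation by phosphorylating eIF2α, ADAR edits adenosine to inosine and so unwinds self RNA, ZAP directs CpG-rich RNA to decay, and TRIM25 attaches ubiquitin in the RIG-I and ZAP pathways.

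The main results at the level of transcripts concern forms of a protein that differ in length, so the coding ends that tell these forms apart are shown first, for 3 genes whose counts moved between them from library to library (ADAR, MAVS and DDX58) and for 1 whose counts did not (ZC3HAV1). For ADAR, MAVS and DDX58 the sequences are the first 30 bases of the coding sequence of the long and the short form, with the start codon in capitals. The short coding sequence is the end of the long one in each of these pairs. It begins at codon 296 of the 1226 codons of ADAR p150, at codon 142 of the 540 codons of MAVS and at codon 204 of the 925 codons of DDX58, so the short DDX58 form lacks the amino end, where RIG-I carries its signalling domains. For ZC3HAV1 the last 30 bases are shown with the stop codon in capitals, since its long and short forms share their first 698 codons and then part. The sequences are from GENCODE v29 transcripts on GRCh38, 5′ to 3′ on the strand of the gene, and the first ADAR run crosses an intron.
ADAR-202, p150, chr1:154602612-154608006, minus strand: ATGaatccgcggcaggggtattccctcagc
ADAR-201, p110, chr1:154601727-154601756, minus strand: ATGgccgagatcaaggagaaaatctgcgac
MAVS-202, full length, chr20:3854625-3854654, plus strand: ATGccgtttgctgaagacaagacctataag
MAVS-201, short, chr20:3861463-3861492, plus strand: ATGcctgtccaggagacccaggcgccagag
DDX58-202, full length, chr9:32526137-32526166, minus strand: ATGaccaccgagcagcgacgcagcctgcaa
DDX58-201, short, chr9:32491353-32491382, minus strand: ATGgaaacttctgacatacagattttctac
ZC3HAV1-201, long, chr7:139047594-139047623, minus strand: actgaagacaaagcctgcgtgattagtTAG
ZC3HAV1-204, short, chr7:139061032-139061061, minus strand: gtgcagcagatgaagagagggccagagTAA

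The table holds whole-number counts per transcript, and the total per library ran from 11277222 to 13443866. Levels are given as CPM, counts per 1000000 counts of the library (TMM-scaled). A level of 3 counts, used as the floor of detection, lay between 0.225 and 0.266 CPM, and such floors and the intervals of shares given later cover counting error only. The 3 libraries of a group are replicates by their labels, which do not name separate cultures, and the paper speaks of biological repeats whose cells differed in generation. The p-values measure the spread between these libraries. With 3 libraries against 3, the exact permutation test cannot give a p below 0.1. Of 8 colorectal epithelial markers read as a check of the cell type, only KRT8 and KRT18 were abundant, at 444 to 850 and 351 to 535 CPM. EPCAM stood at 3.10 to 5.59 CPM, CDH1 at 0.675 to 1.05 CPM and LGALS4 at or below 0.225 CPM, and KRT19, CDX2 and VIL1 had no row. The summed epithelial list, nearly all of it KRT8 and KRT18, was 986 to 1230 CPM in the control libraries and 802 to 1042 CPM after si-AC010789.1. Of the leukocyte, fibroblast and endothelial markers, 4 of 8 had a row: CD14 at most 1.13 CPM, CDH5 0.873 to 2.48 CPM, COL3A1 1.76 to 3.99 CPM and COL1A1 37.8 to 48.0 CPM. These markers alone do not identify a colorectal line, and HCT116 is named from the sample labels. The part of these markers in the results was not tested.

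The genes called effectors above were abundant in these libraries. DDX58, IFIH1, TLR3 and DHX58, called sensors above, were scarcer. On a scale per transcript length (TPM, counts divided by transcript length and scaled to 1000000 per library, here the mean of all 6) ADAR came first at 128 TPM, a level higher than 92.8% of the 18750 genes. TRIM25 followed at 78.6 TPM, EIF2AK2 at 46.8 TPM, ZC3HAV1 at 39.4 TPM and MAVS at 17.8 TPM. DDX58 reached 5.25 TPM and IFIH1 1.02 TPM, while TLR3 and DHX58 were at 0.172 and 0.0724 TPM. Neighbours in this order did not overlap over the 6 libraries except at 2 places. EIF2AK2 (40.0 to 55.2 TPM) met ZC3HAV1 (38.1 to 40.2 TPM), and TLR3 (0.0714 to 0.447 TPM) met DHX58 (0 to 0.237 TPM). The TPM level of DDX58 therefore lay between that of the adaptor MAVS and that of the sister sensor IFIH1, with no overlap on either side.

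**Figure D1:**
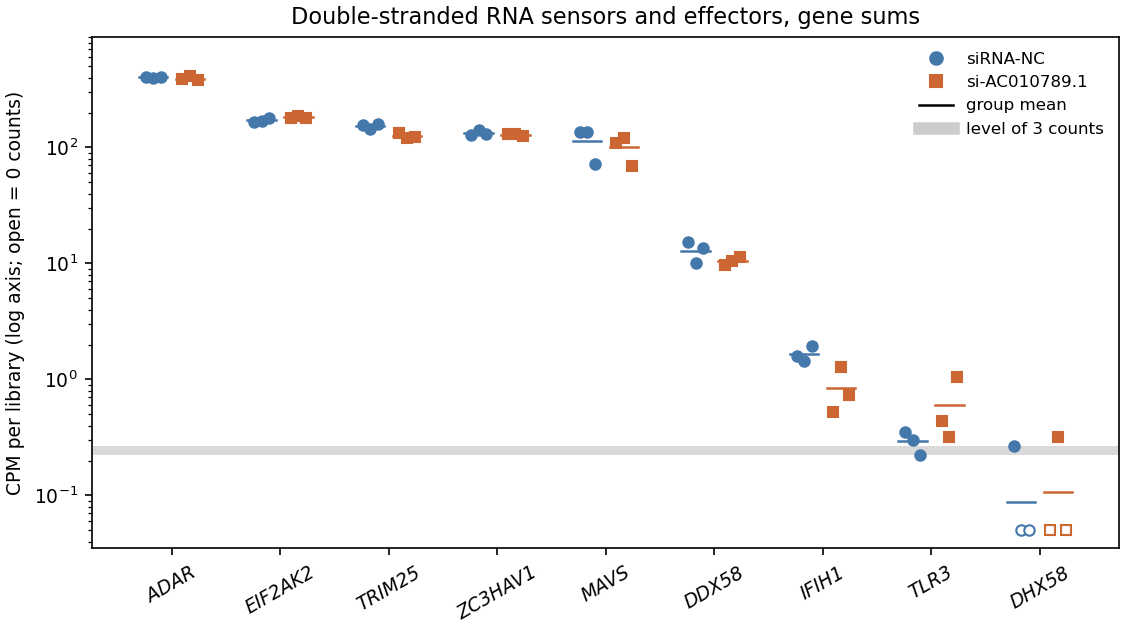
Level of each gene in CPM (log axis) in the 3 siRNA-NC libraries (blue circles) and the 3 si-AC010789.1 libraries (orange squares), with the group mean as a line and the level of 3 counts as a grey band; open symbols at the bottom mark libraries with 0 counts. The groups are apart for TRIM25 and IFIH1, both lower in si-AC010789.1, and DHX58 and TLR3 sit at or near the band.

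None of these genes passed an adjusted p of 0.05 when si-AC010789.1 was compared with siRNA-NC. In edgeR's quasi-likelihood test over all genes, 7 of the 9 passed the filter on low counts and 0 of these 7 were called, where 0.982% of the 13750 genes tested were (0.284% higher, 0.698% lower). At an unadjusted p of 0.05, 2 of the 7 passed, IFIH1 and TRIM25, against 17.2% of all genes. The same genes had groups that did not overlap, both lower, against 25.1% of all genes (12.2% higher, 12.9% lower). At the study's own criteria, an unadjusted p of 0.05 with an absolute log2 fold change of 1, the count was 0, against 0.778% of all genes. DESeq2 called 1 of them, TRIM25, against 5.06% of the 10278 genes to which it gave an adjusted p. It gave IFIH1 no adjusted p.

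RIG-I is the sensor of triphosphate RNA ends, and its gene DDX58 (ENSG00000107201.9, chr9:32455705-32526324, minus strand) was the most abundant of the genes called sensors above. Its level was 15.2, 10.0 and 13.5 CPM in the control libraries and 9.70, 10.5 and 11.4 CPM after si-AC010789.1. The groups overlapped, since the second control library lay among the treated ones. The means were 12.9 ± 2.62 and 10.5 ± 0.863 CPM (SD, n = 3 each), and the fitted log2 fold change was -0.29 (SE 0.17, 95% interval -0.70 to 0.12, edgeR quasi-likelihood adjusted p = 0.443). The interval thus leaves room for a ratio of the groups between 0.614 and 1.09.

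MDA5 is the sensor of long duplexes, and its gene IFIH1 (ENSG00000115267.6, chr2:162267079-162318703, minus strand) was lower in every treated library. The counts were 18, 19 and 26 in the control libraries and 6, 16 and 9 after si-AC010789.1. As levels these are 1.60, 1.43 and 1.95 CPM against 0.524, 1.28 and 0.729 CPM, so the groups did not overlap, but si-AC010789.1 replicate 2 came close to the lowest control. The fitted log2 fold change was -0.96 (SE 0.37, 95% interval -1.85 to -0.07), with an edgeR unadjusted p of 0.0380 and an adjusted p of 0.259. Without si-AC010789.1 replicate 2 it was -1.38 with an edgeR unadjusted p of 0.0102 and an adjusted p of 0.241, so that IFIH1 met the study's criteria in that fit, and without any other single library the edgeR unadjusted p was from 0.0562 to 0.117. On the TPM scale the difference was smaller, a log2 ratio of the means of -0.30, with the groups still apart (exact permutation p = 0.1, two-sided). A lower level of an RNA in the library and fewer cells that make it cannot be told apart in bulk samples.

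LGP2 has no signalling domain of its own, and its gene DHX58 (ENSG00000108771.12, chr17:42101404-42112733, minus strand) was at the limit of detection. It had 3, 0 and 0 counts in the control libraries and 0, 4 and 0 after si-AC010789.1, in a single transcript, so no fold is given. TLR3 (ENSG00000164342.12, chr4:186069152-186088069, plus strand), the endosomal sensor, had 4, 4 and 3 counts in the control libraries and 5, 4 and 13 after si-AC010789.1. The groups overlapped (exact permutation p = 0.2, two-sided). The coding transcript TLR3-201 had 2, 4 and 3 of these counts against 5, 4 and 9, and TLR3-204, which retains an intron, the rest. In CPM the groups of TLR3-201 did not overlap (exact permutation p = 0.1, two-sided). It was under the filter, and a library of each group had 4 counts. A change in either gene was not detectable at this depth.

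MAVS (ENSG00000088888.17, chr20:3846799-3876123, plus strand), the mitochondrial adaptor shared by RIG-I and MDA5, varied within both groups. Its level was 136, 136 and 72.2 CPM in the control libraries and 110, 122 and 69.2 CPM after si-AC010789.1. In each group the library numbered 3 was the low one. The means were 115 ± 36.8 and 100.3 ± 27.5 CPM (SD, n = 3 each), and the log2 fold change was -0.19 (SE 0.30, 95% interval -0.91 to 0.53, edgeR adjusted p = 0.794). Its direction turned, to 0.01, without si-AC010789.1 replicate 3.

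The effectors with catalytic or decay activity differed by little. EIF2AK2 (ENSG00000055332.17, chr2:37099210-37157065, minus strand), the kinase PKR, had 165, 170 and 180 CPM in the control libraries and 179, 185 and 179 CPM after si-AC010789.1. The highest control library lay among the treated ones, and the fitted log2 fold change was 0.08 (SE 0.05, edgeR adjusted p = 0.471), with an interval of the ratio from 0.973 to 1.14. On the TPM scale its groups did not overlap. The values were 43.5, 43.3 and 40.0 TPM against 48.7, 50.1 and 55.2 TPM, a log2 ratio of 0.28 (exact permutation p = 0.1, two-sided), and its TPM depends on how counts were divided between EIF2AK2-201 of 10042 bases and EIF2AK2-204 of 1533 bases. EIF2AK2 shares 35 exonic bases with GPATCH11 on the other strand. ADAR (ENSG00000160710.16, chr1:154582057-154628013, minus strand), the editing enzyme, had 406, 397 and 406 CPM in the control libraries and 388, 411 and 379 CPM after si-AC010789.1. The highest and the lowest library were both in the treated group, and the log2 fold change was -0.04 (SE 0.04, edgeR adjusted p = 0.728), with an interval of the ratio from 0.906 to 1.05. On the TPM scale its log2 ratio was 0.00064. ZC3HAV1 (ENSG00000105939.12, chr7:139043520-139109719, minus strand), the antiviral protein ZAP, had 129, 142 and 131 CPM against 131, 130 and 126 CPM, overlapping groups. Its log2 fold change was -0.06 (SE 0.05, edgeR adjusted p = 0.656), with an interval of the ratio from 0.880 to 1.05.

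TRIM25 (ENSG00000121060.17, chr17:56836387-56914080, minus strand), the ligase that acts with RIG-I and with ZAP, had the lowest p of the 7 genes tested. Its level was 157, 146 and 160 CPM in the control libraries and 133, 122 and 124 CPM after si-AC010789.1. Every treated library lay below every control library. The means were 154 ± 7.35 and 126 ± 5.99 CPM (SD, n = 3 each), a ratio of 0.819. The log2 fold change was -0.29 (SE 0.06, 95% interval -0.43 to -0.15), with an edgeR unadjusted p of 0.00219 and an adjusted p of 0.0890, and leaving out 1 library at a time gave adjusted p-values from 0.133 to 0.241. DESeq2 gave the same log2 fold change, -0.29, with an adjusted p of 0.0193. On the TPM scale the groups overlapped, at 70.1, 73.1 and 102 TPM against 80.5, 78.8 and 67.5 TPM (log2 ratio -0.11, exact permutation p = 0.8, two-sided). TRIM25 shares 132 exonic bases with C17orf67 and 86 with MIR3614 on its own strand, and 80 with DGKE on the other, and whether counting used strand is not given in the sources used here.

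**Figure D2:**
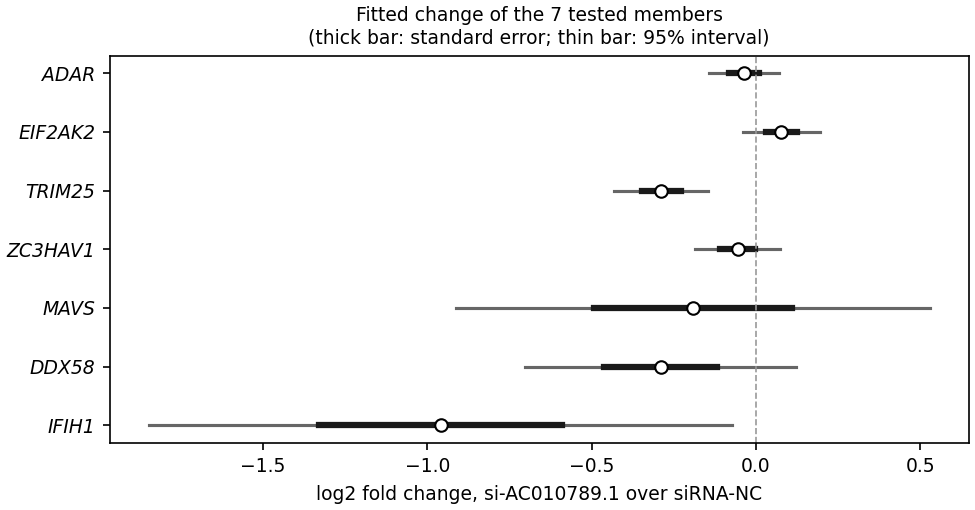
Fitted log2 fold change of si-AC010789.1 over siRNA-NC for the 7 tested genes, with the standard error (thick bar) and the 95% interval (thin bar) from edgeR. The intervals of TRIM25 (-0.43 to -0.15) and IFIH1 (-1.85 to -0.07) end below 0, and those of the other 5 include it.

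Single transcripts varied far more between libraries than gene sums did. The fitted spread between replicates (the biological coefficient of variation) was 0.170 for genes and 0.698 for transcripts. Of the 39 transcripts of these genes, 22 passed the filter and 0 were called, against 0.0135% of the 44319 transcripts tested (0.00903% higher, 0.00451% lower). At an unadjusted p of 0.05, 2 of the 22 passed, TRIM25-201 and ADAR-210, against 5.73% of all transcripts. At the study's criteria 1 passed, ADAR-210, against 3.50% of all transcripts. Which transcripts passed these criteria turned on single libraries: 3 did without siRNA-NC replicate 2 (ADAR-202, ADAR-205 and TRIM25-206), 3 others without si-AC010789.1 replicate 2 (IFIH1-201, MAVS-201 and MAVS-202), and 0 without its replicate 1 or its replicate 3. A single one passed without siRNA-NC replicate 1 (DDX58-201), without siRNA-NC replicate 3 (TRIM25-205) and with a mean of at least 1 CPM (DDX58-201). Groups that did not overlap were found for 7 of the 22, of which 5 were higher and 2 lower, against 14.0% of all transcripts (7.31% higher, 6.73% lower). The lower ones were TRIM25-201 and ADAR-208, and the higher ones were EIF2AK2-204 and, singled out after their values were seen, ADAR-203, ADAR-205 and ZC3HAV1-202, beside ADAR-210.

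The counts of ADAR moved between its p110 and p150 forms. The p110 transcript ADAR-201 had 3257, 354 and 4138 counts in the control libraries and 3320, 665 and 350 after si-AC010789.1. The p150 transcript ADAR-202 had 192, 3751 and 198 counts in the control libraries and 191, 3865 and 3447 after si-AC010789.1. Libraries of the same group thus fell at opposite ends. In the second control library and the treated libraries 2 and 3 most ADAR counts were assigned to p150 transcripts, and in the other 3 most were assigned to p110. These transcripts begin 19782 bases apart and share the long end of the message, and how the counting program divided shared reads is not given in the sources used here. ADAR-208, whose coding sequence of 1200 codons uses the p150 start codon too, had 1070, 1073 and 1001 counts against 818, 526 and 777, so its groups did not overlap (log2 fold change -0.52, SE 0.23, edgeR adjusted p = 0.893).

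The share of ADAR counts in transcripts with the p150 start codon, ADAR-202 and ADAR-208 together, was 27.6% (95% Clopper-Pearson interval 26.3% to 28.9%), 91.7% (90.9% to 92.4%) and 22.2% (21.1% to 23.3%) in siRNA-NC. In si-AC010789.1 it was 22.7% (21.5% to 24.0%), 85.4% (84.4% to 86.3%) and 90.2% (89.3% to 91.1%). The means were 47.1% ± 38.7 and 66.1% ± 37.7 (SD, n = 3 each), a difference of 19.0 points that was smaller than the spread within either group (exact permutation p = 0.9, two-sided). Without single libraries the difference ran from 6.47 points (without siRNA-NC replicate 3) to 41.2 points (without siRNA-NC replicate 2). Over the same libraries the ADAR gene sum stayed within 1.08-fold while the transcript with the most counts, ADAR-201, moved 11.6-fold. Such a pattern, a sum within 1.5-fold and a leading transcript moving over 2-fold, was found in 1 of the 6 members with at least 10 CPM and several transcripts, and in 26.5% of 9074 such genes.

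Of the 4 minor ADAR transcripts that retain introns, 3 had groups apart, all higher in si-AC010789.1 and at low counts, where 7.31% of all transcripts tested were higher with groups apart. ADAR-210, of 849 bases, had 6, 8 and 7 counts in the control libraries and 18, 12 and 12 after si-AC010789.1 (log2 fold change 1.05, SE 0.36, edgeR unadjusted p = 0.0295, adjusted p = 0.818). ADAR-205 had 6, 11 and 5 counts against 14, 12 and 13, and ADAR-203 had 39, 50 and 46 against 74, 51 and 71. In both, the lowest treated library had 1 count more than the highest control. The fourth retained-intron transcript in the table, ADAR-209, had 7, 7 and 9 counts against 5, 8 and 7.

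The counts of MAVS and DDX58 moved between forms as well, in particular libraries. The paired forms begin 44 bases apart for MAVS and 116 for DDX58, and how shared reads were divided is not given in the sources used here. The full-length MAVS-202 had 1465, 1549 and 850 counts in the control libraries and 249, 1481 and 541 after si-AC010789.1, and the short MAVS-201 had 69, 252 and 112 against 1011, 42 and 314. MAVS-201 thus took 4.50%, 14.0% and 11.6% of the gene in the controls and 80.2%, 2.76% and 36.7% after si-AC010789.1. Replicate 2 of the treated group had the lowest share of the 6 libraries and replicate 1 the highest, and neither transcript was called (log2 fold change -0.77 for MAVS-202, adjusted p = 0.978, and 1.79 for MAVS-201, adjusted p = 0.942, both edgeR). Without treated replicate 1 these values were -0.37 and 0.35, and without treated replicate 2 they were -1.67 and 2.33. The short form of MAVS lacks the first 141 codons, among them those of the caspase recruitment domain that meets RIG-I and MDA5. DDX58-202 had 171, 68 and 88 counts in the control libraries and 109, 131 and 141 after si-AC010789.1. DDX58-201 had 0, 65 and 92 counts against 2, 0 and 0, that is 0%, 48.9% and 51.1% of the gene in the controls and 2 of 111, 0 of 131 and 0 of 141 counts in the treated libraries. A count of 0 allows a share of up to 1.75% in siRNA-NC replicate 1 and up to 2.29% and 2.13% in the treated libraries 2 and 3. The short form thus had at least 65 counts in 2 control libraries and 2 counts or fewer in the third control library and in every treated one. DDX58-201 was under the filter of the main fit and was not tested there, and its CPM groups overlapped (exact permutation p = 0.4, two-sided).

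**Figure D3:**
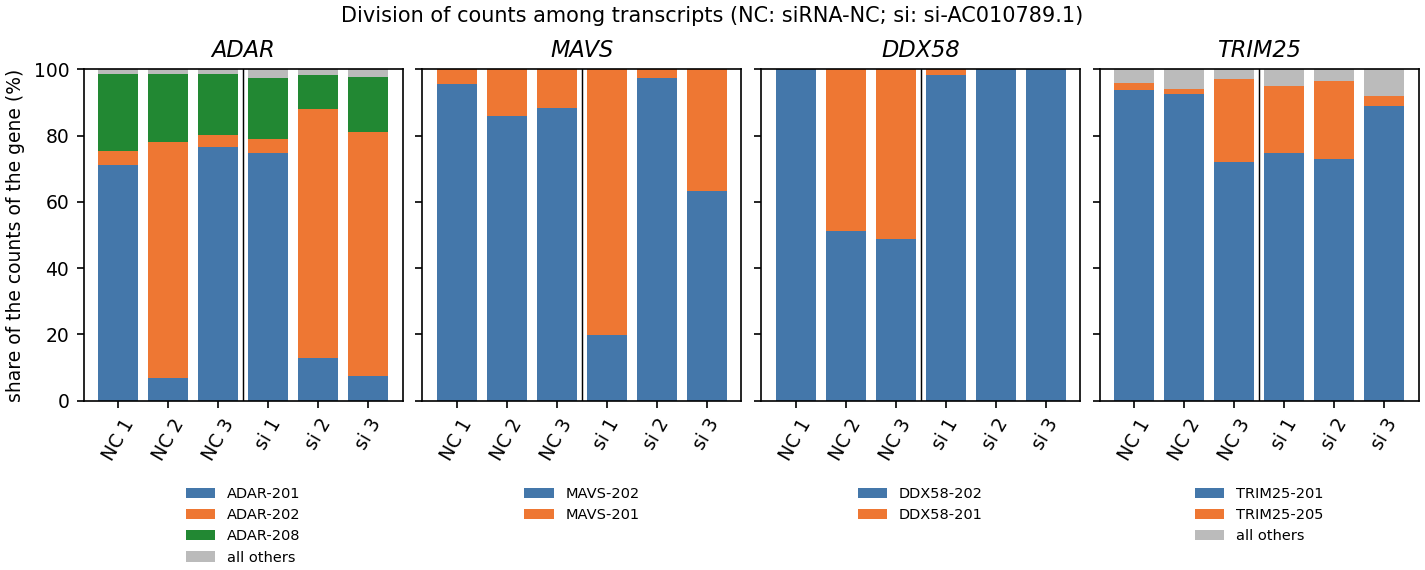
Share of the counts of ADAR, MAVS, DDX58 and TRIM25 in their main transcripts (stacked bars, percent) in each of the 3 siRNA-NC libraries (NC 1 to 3) and the 3 si-AC010789.1 libraries (si 1 to 3). Libraries of the same group differ widely: the share of ADAR-202 is high in NC 2, si 2 and si 3, and that of TRIM25-205 in NC 3, si 1 and si 2.

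For TRIM25 the lower sum was seen in its main coding transcript. TRIM25-201, of 630 codons, had 1659, 1787 and 1530 counts in the control libraries and 1135, 1110 and 1359 after si-AC010789.1, and its groups did not overlap (log2 fold change -0.42, SE 0.13, edgeR unadjusted p = 0.0218, adjusted p = 0.793). TRIM25-205, a fragment of 1555 bases annotated as a target of nonsense-mediated decay, had 35, 31 and 531 counts against 307, 360 and 47. It took 25.0% of the gene in siRNA-NC replicate 3 and 20.2% and 23.7% in the treated libraries 1 and 2, but 1.61% to 3.08% in the other 3 libraries. TRIM25-202, which encodes the same 630 codons, had 31, 32 and 17 counts against 37, 13 and 46. In each group the libraries rich in TRIM25-205 had the highest TRIM25 values on the TPM scale, on which a count in a transcript of 1555 bases weighs more than one in TRIM25-201, of 5734 bases.

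EIF2AK2 and ZC3HAV1 had most of their counts in 1 transcript in each library. EIF2AK2-201 (551 codons) had 1773, 2160 and 2373 counts in the control libraries and 1925, 2180 and 2063 after si-AC010789.1. EIF2AK2-204 (510 codons) had 75, 81 and 0 against 112, 124 and 117, so its groups did not overlap, but the counts of siRNA-NC replicate 3 were 0 (log2 fold change 1.18, SE 1.41, edgeR adjusted p = 0.992). EIF2AK2-206, which retains an intron, had 4, 4 and 4 counts against 6, 5 and 19. ZC3HAV1-201 (902 codons) had 1254, 1824 and 1545 counts against 1244, 1442 and 1394, ZC3HAV1-203 (1024 codons) had 153, 18 and 135 against 203, 120 and 110, and the short form ZC3HAV1-204 (699 codons) had 38, 43 and 59 against 38, 53 and 43. Transcripts with the long-form stop codon held 96.7% ± 0.924 of ZC3HAV1 counts in the control libraries and 96.2% ± 0.325 after si-AC010789.1 (SD, n = 3 each), a difference within the spread of the libraries (exact permutation p = 0.4, two-sided). Over the 6 libraries this share ran from 95.9% to 97.7%, where the p150 share of ADAR ran from 22.2% to 91.7%. IFIH1-201, the coding transcript of 1025 codons, had 17, 12 and 24 counts against 2, 13 and 4, groups that overlapped. IFIH1-202 (221 codons) had 0, 7 and 2 against 3, 2 and 3, and IFIH1-203 had 2 counts or fewer in any library. ZC3HAV1-202, an incomplete fragment, had 12, 0 and 13 counts against 14, 14 and 15.

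Several of these genes are themselves switched on by interferon through promoter elements bound by STAT and IRF factors, so the windows of their promoters that hold such letters are shown. The motif searched was GAAANNGAAA on both strands, in the stretch from 250 bases before to 50 bases after each RefSeq start site (GRCh38.p14). It was found in 3.57% of 35116 promoters and in 3 of the 8 members with an entry, DDX58 being listed there as RIGI. The first share counts promoters and the second genes, and these members had 10 promoters in all. The capitals mark the match. IFIH1 had 3 matches, of which the one nearest the start site is shown.
EIF2AK2, chr2:37156967-37156996, minus strand: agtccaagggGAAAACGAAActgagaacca
IFIH1, chr2:162318686-162318715, minus strand: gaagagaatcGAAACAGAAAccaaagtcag
TLR3, chr4:186069142-186069171, minus strand: cggcactctcGAAAGTGAAAgtaaagcttg
The genes with a match did not share a direction: the gene sum of EIF2AK2 had a log2 fold change of 0.08 and that of IFIH1 one of -0.96, and TLR3 was below the filter. The match is a description of letters and not of factor binding.

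Around these genes, no list of pathway genes held a gene with an adjusted p under 0.05 in edgeR. The relay below MAVS and TLR3 (adaptors, kinases and transcription factors) had 22 of 22 genes tested, 13 with a fitted value above and 9 below 0, and a median log2 fold change of 0.04. Over all 13750 genes these figures were 6860 above, 6890 below and a median of -0.00066. At an unadjusted p of 0.05, 3 of the 22 passed, against 17.2% of all genes, and 7 had groups apart, against 25.1% of all genes. RELA, the NF-κB subunit p65, had 64.6 ± 7.27 CPM in the control libraries and 46.5 ± 4.06 CPM after si-AC010789.1 (SD, n = 3 each, log2 fold change -0.48, edgeR adjusted p = 0.109). TRAF2, an adaptor of the same relay, had 102 ± 5.15 against 120.1 ± 5.50 CPM (SD, n = 3 each, log2 fold change 0.24, edgeR adjusted p = 0.134).

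Regulators of the RIG-I-like receptors had 20 of 22 genes tested, 9 above and 11 below 0, with a median of -0.01, 4 at an unadjusted p of 0.05 (17.2% of all genes) and 6 with groups apart (25.1% of all genes). ATG12, which is joined to ATG5 in autophagy, had 53.1 ± 3.67 against 38.8 ± 1.07 CPM (SD, n = 3 each, log2 fold change -0.45, edgeR adjusted p = 0.0603). PPP1CC, a phosphatase that activates RIG-I and MDA5, had 219 ± 18.8 against 267 ± 8.79 CPM (SD, n = 3 each, log2 fold change 0.28, edgeR adjusted p = 0.121). At the study's criteria 1 of the 20 passed, against 0.778% of all genes, and 0 in each of the other lists given here. It was DDX60, a helicase, with 5.04 ± 0.622 against 2.32 ± 0.986 CPM (SD, n = 3 each, log2 fold change -1.12, edgeR unadjusted p = 0.0120, adjusted p = 0.164).

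The partners and the substrate of PKR had 12 of 12 genes tested, 8 above and 4 below 0, with a median of 0.04, 2 at an unadjusted p of 0.05 (17.2% of all genes) and 3 with groups apart (25.1% of all genes). EIF2S1, which encodes the eIF2α subunit that PKR phosphorylates, had 190.0 ± 6.06 against 161 ± 5.37 CPM (SD, n = 3 each, log2 fold change -0.24, edgeR adjusted p = 0.0863). PPP1R15B, the subunit of the phosphatase that removes this mark, had 211 ± 2.75 against 193 ± 10.0 CPM (log2 fold change -0.13, edgeR adjusted p = 0.267).

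Relatives and cofactors of ADAR and ZAP had 10 of 14 genes tested, 3 above and 7 below 0, with a median of -0.08, 4 at an unadjusted p of 0.05 (17.2% of all genes) and 4 with groups apart (25.1% of all genes). DHX30, a helicase that works with ZAP, had 149 ± 5.47 against 125 ± 2.55 CPM (log2 fold change -0.24, edgeR adjusted p = 0.0836), and KHNYN, a nuclease cofactor of ZAP, 33.3 ± 0.618 against 39.0 ± 2.49 CPM (log2 fold change 0.23, edgeR adjusted p = 0.215). Genes induced when the sensors fire had 9 of 20 tested, 2 above and 7 below 0, with a median of -0.14, 0 at an unadjusted p of 0.05 and 1 with groups apart, against the same shares of all genes. That gene was IFIT5, a binder of RNA ends, with 32.3 ± 0.673 against 28.8 ± 1.58 CPM (log2 fold change -0.17, edgeR adjusted p = 0.331). ISG15, a ubiquitin-like modifier, had 9.57 ± 1.10 against 11.7 ± 1.81 CPM (log2 fold change 0.30, edgeR adjusted p = 0.385). IFNB1, IFNL1, IFNL2 and IFNL3, the interferon genes at the end of the pathway, had no row in the table, whose rows each hold at least 3 counts in all, and CXCL10 and RSAD2, strongly induced by interferon, had 5 and 7 counts over the 6 libraries. DESeq2 called 5 genes of these lists, RELA, ATG12, PPP1CC, EIF2S1 and DHX30, where it called 5.06% of all genes to which it gave an adjusted p. Of the 5, PPP1CC was higher and the other 4 lower in si-AC010789.1.

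**Figure D4:**
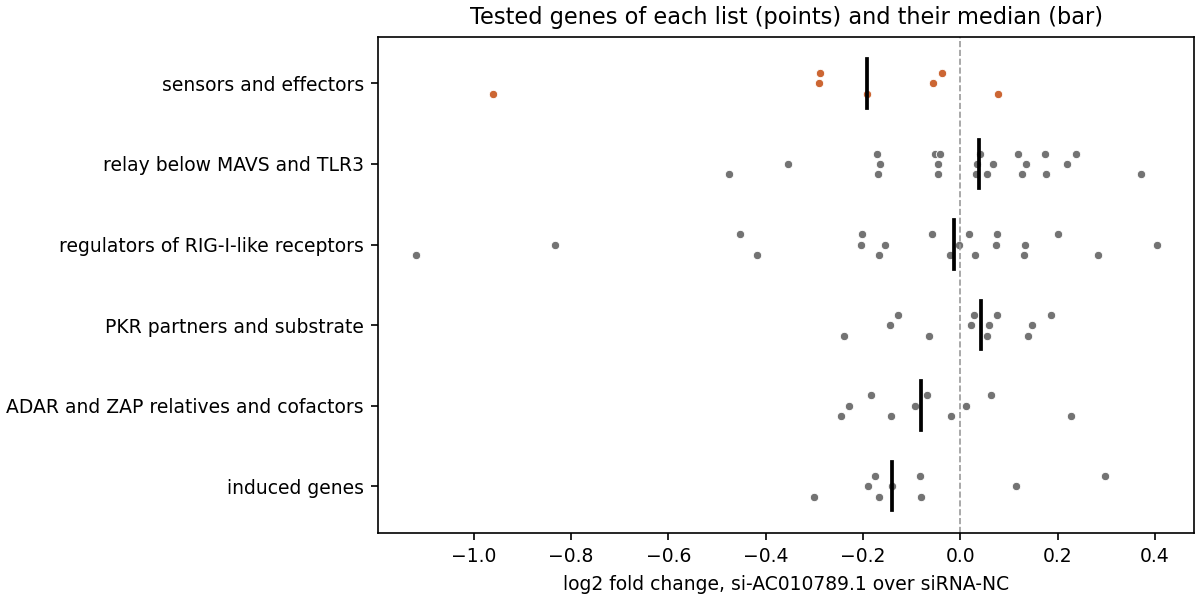
Fitted log2 fold change of si-AC010789.1 over siRNA-NC for each tested gene (points) of the sensors and effectors (orange) and of the 5 lists around them (grey), with the median of each as a black bar and 0 as a dashed line. The medians of the 5 lists lie between -0.14 and 0.04, that of the 7 sensors and effectors tested is -0.19 (6 values below 0 and 1 above), and the lowest points are DDX60 (-1.12) and IFIH1 (-0.96).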

How the data were processed

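RNA sequencing of HCT116 cells was analysed, with 3 libraries per group. The deposited values are counts: an integer for each Ensembl transcript in each library, not normalized by the authors. CASAVA 1.8, TopHat2 2.0.6 and the builds GRCh38 and mm10 appear in the submitters' processing notes, and the paper names Cuffdiff; the counting program and its annotation are not given in the sources used here. GENCODE v29 (GRCh38) was used to add up the transcripts of a gene; 104 identifiers had no match in it and stayed out. Genes and transcripts were tested over the whole table with edgeR 4.0.16 (TMM, filterByExpr at its defaults of 10 counts and 15 in total, the quasi-likelihood test, Benjamini-Hochberg adjustment) in R 4.3.3. Shares, CPM and TPM were compared with exact two-sided permutation tests in Python 3.11.15 (pandas 2.3.3, numpy 2.4.6, scipy 1.17.1), and figures drawn with matplotlib 3.10.9. Counts divided by transcript length gave TPM, whose comparison was chosen after seeing the data. Promoters are from RefSeq.

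The members and gene lists were chosen with earlier results of these data known. The text names every member, the 3 transcripts of each with the highest mean CPM, any transcript called or at the study's criteria, and of each list the genes called and the 2 with the lowest p; other names were chosen after their values were seen. Alternatives were DESeq2 1.42.0, its size factors in edgeR, no filter, a mean of at least 1 CPM, a replicate block, leaving out each library and, for shares, complete coding sequences. The fits were tested on simulated data with known changes. The paper speaks of cells of differing generation among its repeats, but neither it nor the labels tie a replicate number to a generation in both groups. The amino acid sequences of the members and the promoter of DHX58 were not analysed here. 1 further gene list is not reported here.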

Additional observations from a re-analysis of the deposited data

How the results depend on the processing

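Under each alternative run, the gene fits left 0 of the 7 tested genes called, with the exception of DESeq2, which called 1, TRIM25 (log2 fold change -0.29). Leaving out 1 library at a time gave 0 to 0 genes called and 0 to 1 at the study's criteria (IFIH1, without si-AC010789.1 replicate 2). The log2 fold change of MAVS ran from -0.44 to 0.015 in these fits, and that of ADAR turned to 0.00064 on the TPM scale. Transcripts at the study's criteria numbered 0 with DESeq2, 2 with no filter (ADAR-210 and DDX58-201), 0 with the replicate block, 1 with a mean of at least 1 CPM (DDX58-201, in place of ADAR-210) and 0 to 3 without single libraries. The share of ADAR counts with the p150 start codon differed by 6.47 to 41.2 points between groups without single libraries, and that of ZC3HAV1 with the long-form stop codon by -0.91 to 0.0056 points.

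Some transcripts turned direction without 1 library. Over these fits the log2 fold change ran from -0.056 (without siRNA-NC replicate 2) to 0.82 for DDX58-202, from -0.025 (without siRNA-NC replicate 1) to 0.075 for EIF2AK2-201, from -0.14 (without siRNA-NC replicate 2; -0.11 without replicate 1) to 2.85 for TRIM25-205, from -0.019 (without si-AC010789.1 replicate 3) to 0.69 for TRIM25-202, and from -0.13 to 0.14 for ZC3HAV1-204 (0.14 without control library 3, 0.054 and 0.025 without treated libraries 1 and 3). DESeq2 called 1 gene of the relay, 2 of the regulators, 1 of the PKR list and 1 of the ADAR and ZAP list. Without single libraries the list medians ran from -0.019 to 0.056 for the relay, -0.062 to -0.0035 for the regulators, -0.037 to 0.075 for the PKR list, -0.097 to -0.071 for ADAR and ZAP and -0.15 to -0.050 for induced genes. The causes were not tested.

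The replicate block left 0 members called and took the count over all genes from 135 to 0, and MAVS had a log2 fold change of -0.18 with it (edgeR adjusted p = 0.324). DESeq2 gave 520, no filter 69 (332 at the study's criteria against 107), and fits without 1 library 12 to 37. Deviations of same-numbered libraries correlated at 0.11, 0.01 and 0.02, so the numbers were not taken to pair the libraries. Depth limits DHX58 and TLR3, both under the filter, and IFIH1, at 6 to 26 counts per library.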

Other observations

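Over the 6 libraries, the genes whose log2 CPM followed TRIM25 most closely among 13749 compared were MAP1A (Pearson r = 0.995), SEC61B (r = 0.994) and BFSP1 (r = 0.994), as a description of libraries that share their groups and with no test. In these libraries MAP1A, a microtubule-associated protein, had 93.1, 73.9 and 94.1 CPM in siRNA-NC and 55.5, 44.3 and 49.8 CPM in si-AC010789.1, and BFSP1, a lens filament protein, had 22.6, 16.8 and 21.6 against 13.4, 9.99 and 11.1 CPM. SEC61B, a subunit of the translocon of the endoplasmic reticulum, moved less, with 33.7, 32.6 and 33.5 against 31.1, 30.3 and 30.5 CPM. In total 444 genes had an r above 0.9 with TRIM25.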
